A study of Homo sapiens with 4 samples.

Results

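The mitochondrial carrier family SLC25 was followed in the human lung carcinoma line A549 with and without induction of A-FOS. Members were the protein-coding genes whose symbol is SLC25A and a number, which gave 48 of the 58051 genes listed in the count files, and 44 of the 48 passed the filter on low counts. All 4 polyA RNA libraries came from A549 cells with an A-FOS gene placed at random in the genome by piggyBac, a transposon system, and the labels do not say whether the line is 1 clone. The plus Dox group (2 libraries) received 1 µg/mL doxycycline, and the minus Dox group (2 libraries) carried the same gene and is labelled untreated. The labels give no treatment time and no line without the A-FOS gene. The A-FOS protein acts as a dominant negative of AP-1: it binds JUN partners, and these dimers cannot bind DNA. Doxycycline, which also inhibits mitochondrial ribosomes, was present only together with A-FOS induction, so the effects of the drug and of A-FOS cannot be told apart.

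SLC25 carriers are small membrane proteins, nearly all of the inner mitochondrial membrane, built from repeats of paired helices. They exchange nucleotides, phosphate, carboxylates, amino acids, cofactors and metal ions between the cytosol and the matrix, and so tie oxidative phosphorylation to the rest of metabolism. A few work elsewhere, such as SLC25A17 in peroxisomes and SLC25A46 in the outer mitochondrial membrane.

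Total counts were 32727539 and 31104964 in the plus Dox libraries, against 36377784 and 40526912 in the minus Dox libraries. Levels are given as CPM, read counts per 1 M of library size after scaling with TMM, edgeR's method. Each fold change sets plus Dox over minus Dox, as fitted. FOS, whose reads may include those of A-FOS, had 48.6 and 51 CPM in plus Dox libraries, against 1.36 and 1.52 CPM in minus Dox libraries (log2 5.1, SE 0.11, edgeR adjusted p = 1.12e-29). The summed level of 4 epithelial markers (KRT8, KRT18, KRT7 and EPCAM) was 6432 and 6238 CPM in plus Dox, against 12464 and 12806 CPM in minus Dox, and all 4 fell, KRT7 the most (log2 −3.11). EPCAM itself was low, at 2.12 and 3.49 CPM on average in plus and minus Dox. Markers of fibroblasts, leukocytes and endothelium summed to at most 45.7, 2.54 and 1.63 CPM in any library, and COL1A1 made up most of the fibroblast sum. CD3E was at 0 in every library. The part of these markers in the results below was not tested. In bulk RNA, fewer cells of a type and less RNA per cell cannot be told apart.

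Promoters are shown first for the members whose window held a site of the kind bound by AP-1 or ATF dimers. RefSeq windows (GRCh38.p14, 250 bases before to 50 bases after a start) were found for 40 of the 48 members, in 50 windows. The TPA response element TGANTCA, the usual AP-1 letters, was searched on both strands and stood in the windows of 2 members, SLC25A22 and SLC25A48. That was 4% of member windows, against 7.68% of all 34961 windows. The cyclic AMP response element TGACGTCA, bound by CREB, ATF and JUN–ATF dimers, stood in the windows of SLC25A25, SLC25A33 and SLC25A36, which was 6% of member windows, against 1.85% of all windows. N stands for any base. Both sets of letters read the same on both strands, and neither contains the other. The 250 bases before the start are printed 5′ to 3′ on the gene's strand, with the element in capitals, for all 5 members with a match. The 3 genes with TGACGTCA rose, where 33.6% of tested protein-coding genes rose. The share that rose among all genes with these letters was not computed. Of the 2 with TGANTCA, SLC25A22 did not pass (log2 −0.04), and SLC25A48 fell on 8 to 27 counts per library, a call lost whichever library was left out.
SLC25A33 (chr1:9539215-9539464, plus strand): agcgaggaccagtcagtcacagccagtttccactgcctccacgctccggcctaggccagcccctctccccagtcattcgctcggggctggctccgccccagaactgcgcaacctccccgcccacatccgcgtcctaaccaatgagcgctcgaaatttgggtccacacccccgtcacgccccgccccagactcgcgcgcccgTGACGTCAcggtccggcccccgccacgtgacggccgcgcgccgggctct
SLC25A36 (chr3:140941586-140941835, plus strand): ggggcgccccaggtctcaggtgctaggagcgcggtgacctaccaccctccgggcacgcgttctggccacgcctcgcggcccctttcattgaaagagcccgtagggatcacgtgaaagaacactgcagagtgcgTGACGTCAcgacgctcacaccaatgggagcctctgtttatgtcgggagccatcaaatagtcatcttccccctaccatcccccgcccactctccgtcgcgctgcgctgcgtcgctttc
SLC25A25 (chr9:128098257-128098506, plus strand, not its only start): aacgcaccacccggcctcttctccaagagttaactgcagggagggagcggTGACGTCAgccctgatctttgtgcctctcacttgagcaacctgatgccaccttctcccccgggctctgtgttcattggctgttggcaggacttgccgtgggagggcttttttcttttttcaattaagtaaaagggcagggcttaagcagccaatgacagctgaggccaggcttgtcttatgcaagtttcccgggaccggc
SLC25A48 (chr5:135578922-135579171, plus strand, not its only start): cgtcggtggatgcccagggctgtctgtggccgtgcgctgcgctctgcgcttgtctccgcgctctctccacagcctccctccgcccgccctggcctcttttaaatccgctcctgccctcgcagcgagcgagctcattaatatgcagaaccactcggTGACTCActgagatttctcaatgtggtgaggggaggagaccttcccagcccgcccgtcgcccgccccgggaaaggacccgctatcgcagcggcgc
SLC25A22 (chr11:796239-796488, minus strand, not its only start): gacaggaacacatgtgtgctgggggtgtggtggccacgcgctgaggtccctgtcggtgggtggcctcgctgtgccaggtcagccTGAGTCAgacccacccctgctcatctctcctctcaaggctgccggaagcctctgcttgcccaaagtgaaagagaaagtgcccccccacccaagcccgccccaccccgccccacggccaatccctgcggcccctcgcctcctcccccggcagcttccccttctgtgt
In SLC25A33 the element began 49 bases before the start, in SLC25A36 117 bases and in SLC25A25 200 bases before it, and the TGANTCA letters began 95 bases before the start in SLC25A48 and 166 bases before it in SLC25A22. The E-box CACGTG, bound by MYC and related factors, stood in 18% of member windows, against 7.27% of all windows. Of the 9 members with it, SLC25A33, SLC25A36 and SLC25A46 rose and SLC25A51 fell. SLC25A13, SLC25A22, SLC25A26 and SLC25A38 did not pass, and SLC25A31 was not tested. CACGTG can share its outer letters CA with TGACGTCA, but it stood apart from that element in the printed SLC25A33 and SLC25A36 sequences. The ETS letters CCGGAAG stood in 22% of member windows, against 10.3% of all windows, and the longer NRF1 motif in 0 member windows, against 1.24% of all windows. These letters were chosen with the fold changes known and are descriptions only. No binding was measured here.

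With A-FOS induced, the family moved both ways. In 44 tested members there were 18 rises and 10 falls, and the other 16 did not pass edgeR's quasi-likelihood test at an adjusted p of 0.05 (Benjamini-Hochberg over all tested genes). Across all 18046 tested genes 56.9% passed, 28.4% as higher and 28.4% as lower. Among the members 63.6% passed, 40.9% as higher and 22.7% as lower. All members are protein-coding, and of 13964 tested protein-coding genes 33.6% were higher and 31.9% lower. The 2 groups did not overlap in 32 tested members (72.7%), against 77% of all tested genes. The members' share called is thus near the background. Their changes were mostly small: 3 of 28 called members (10.7%) had at least a 2-fold fitted change, against 2293 of 10265 called genes (22.3%). The members' median log2 fold change was 0.14, against 0.00 over all tested genes, and it was 0.067 without plus Dox replicate 1.

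The split into higher and lower depended on the scaling. With library size only, the median of all tested genes moved to 0.22 on the log2 scale and that of the members to 0.36, and 27 members rose and 8 fell. Called members were higher in 64.3% with TMM and 77.1% with library size only, and called genes overall in 50% and 72.9%. Removing the trend of fold changes over GC content, exon length and abundance across all genes left 20 members higher and 8 lower. After that step the 3 called members with at least a 2-fold change lay at 0.56 (SLC25A40), 0.83 (SLC25A21) and −1.68 (SLC25A48) on the log2 scale. Values after that step are also given where they change a call.

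**Figure D1:**
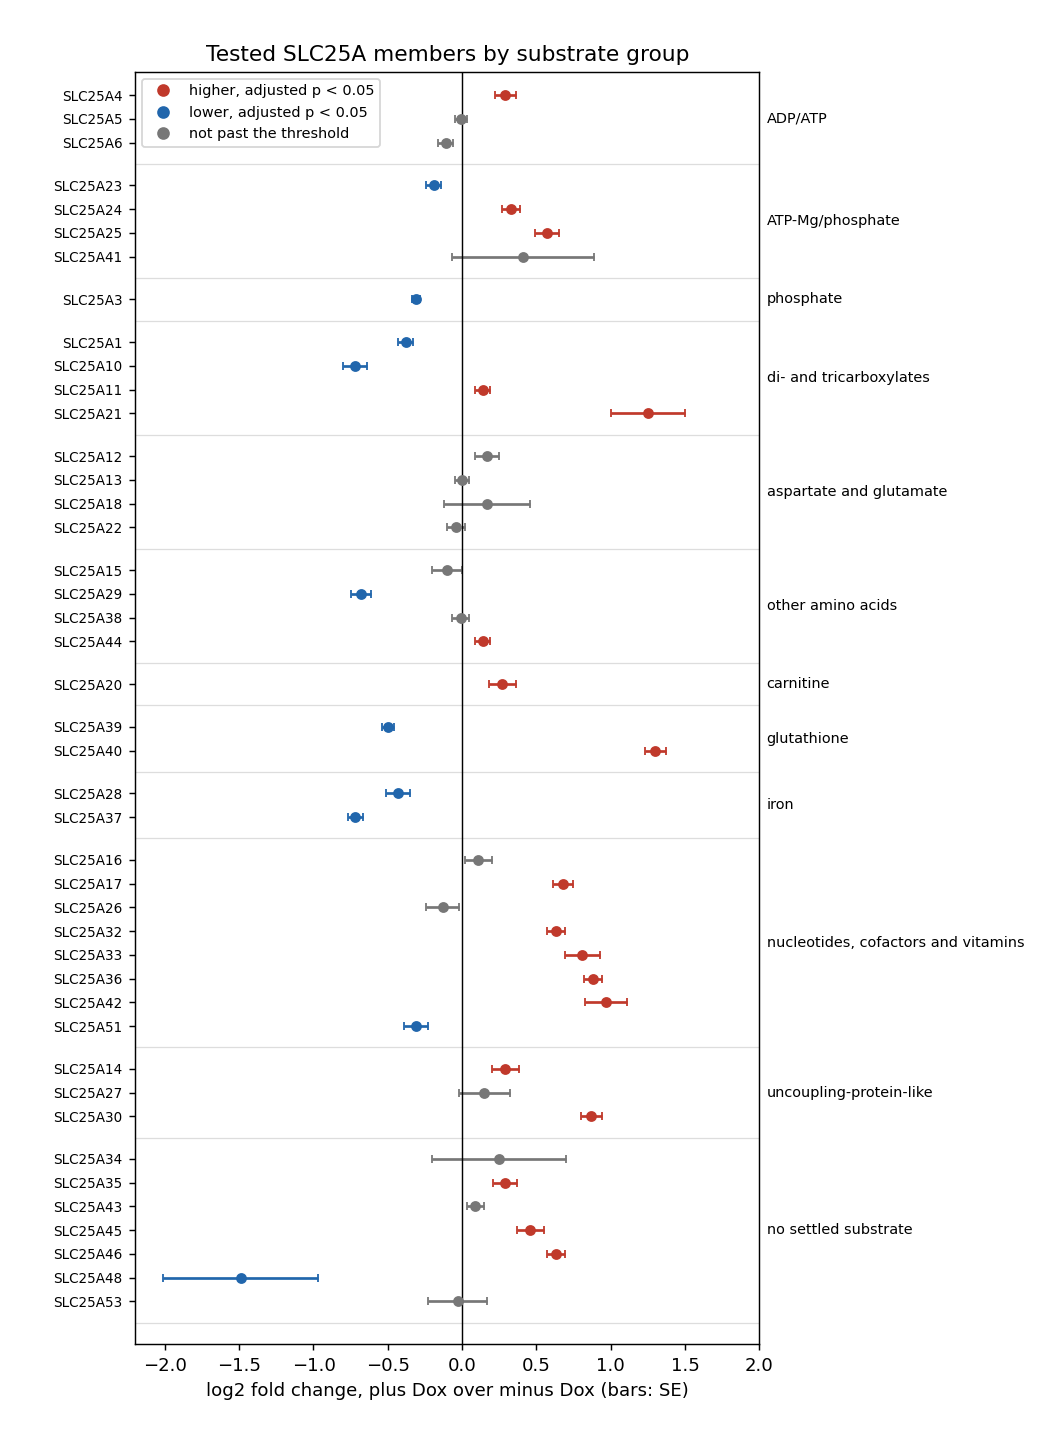
Fitted log2 fold change, plus Dox over minus Dox, with SE bars, for 43 of the 44 tested SLC25A members, in rows by substrate group. Red marks 18 higher, blue 10 lower and grey 15 not past the threshold with TMM scaling. Both iron carriers lie left of 0 and the 2 glutathione carriers on opposite sides, and SLC25A46 turns to −0.27 and SLC25A3 to 0.064 once the trend over GC, length and abundance is taken out.

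The largest level in the family, per length of exons, was that of SLC25A5, followed by SLC25A3 and SLC25A1. SLC25A5, the ADP/ATP exchanger typical of dividing cells, averaged 336 CPM per kb of exon in plus Dox and 338 in minus Dox. SLC25A3, which brings in the phosphate used by ATP synthase, averaged 68.2 CPM per kb in plus Dox and 84.8 in minus Dox, and SLC25A1, which exports citrate, 54.4 and 70.7. SLC25A6 and SLC25A39 came next, with means over all libraries of 48.6 and 46.5 CPM per kb. Exon length here is the union over GENCODE 29 transcripts, which is long for genes with retained introns. All 48 members together had 2768 ± 36 CPM in plus Dox and 2912 ± 8.75 CPM in minus Dox (SD, n = 2 each), and SLC25A3 alone made up 21.9% of that sum in plus Dox and 25.9% in minus Dox. As a share of raw counts the order was the other way, at 0.295% and 0.301% of each plus Dox library, against 0.271% and 0.269% of each minus Dox library.

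Among the ADP/ATP carriers SLC25A4 rose and the other tested forms did not pass with TMM. SLC25A4, the form typical of heart and muscle, had 34 and 34.8 CPM in plus Dox libraries, against 26.8 and 29.2 CPM in minus Dox libraries, a log2 fold change of 0.29 (SE 0.07, edgeR adjusted p = 5.66e-04). SLC25A5 had 499 and 509 CPM in plus Dox libraries, against 519 and 496 CPM in minus Dox libraries, and did not pass (−0.01, SE 0.04, edgeR adjusted p = 0.877). The groups of SLC25A4 did not overlap, and those of SLC25A5 did. SLC25A6, the widely expressed form in the pseudoautosomal region, had 101 and 102 CPM in plus Dox libraries, against 107 and 111 CPM in minus Dox libraries (−0.11, SE 0.05, edgeR adjusted p = 0.0523), and passed as lower without minus Dox replicate 1 (0.00385). Per exon length SLC25A5 held 86.1% and 86.2% of the 3 genes in plus Dox and 86.3% and 85.2% in minus Dox, while SLC25A4 held 1.82% in both plus Dox libraries, against 1.38% and 1.56% in minus Dox. The testis form SLC25A31 had counts of 0 and 3 in plus Dox and 0 in both minus Dox libraries and was not tested. In its libraries at 0, up to 3 counts remain possible (0.08 to 0.0887 CPM, counting error only). SLC25A5 and SLC25A6 passed as higher under library size only (0.21 and 0.11) and after the trend was removed (0.70 and 0.14). The 9 annotated pseudogenes of SLC25A5 held at most 16 counts each in any library.

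Phosphate and ATP-Mg carriers split by member. SLC25A3 had 591 and 622 CPM in plus Dox libraries, against 755 and 753 CPM in minus Dox libraries, a log2 fold change of −0.31 (SE 0.03, edgeR adjusted p = 9.18e-10), though it lay at 0.064 (edgeR adjusted p = 0.120) with the trend removed. The ATP-Mg/phosphate carriers, which set the matrix pool of adenine nucleotides, moved apart. SLC25A25 rose to 28.9 ± 1.86 CPM in plus Dox, against 19.4 ± 0.726 CPM in minus Dox (SD, n = 2 each), and SLC25A24 to 67.2 ± 4.68 CPM, against 53.3 ± 0.162 CPM. Their log2 fold changes were 0.57 and 0.33 (edgeR adjusted p = 9.67e-08 and 5.71e-06). SLC25A23 fell to 87.7 ± 1.66 CPM in plus Dox, against 99.8 ± 7.06 CPM in minus Dox (−0.19, edgeR adjusted p = 0.00188). The count ratio of SLC25A25 to SLC25A23 was 0.34 and 0.319 in plus Dox libraries, against 0.199 and 0.19 in minus Dox libraries. SLC25A41, which lies beside SLC25A23 on chromosome 19, stayed under 1 CPM in every library and did not pass. SLC25A24 lay at 0.035 and SLC25A23 at −0.091 with the trend removed, where neither passed (edgeR adjusted p = 0.636 and 0.138), and SLC25A23 was at 0.028 with library size only (0.653) and missed without plus Dox replicate 2 (0.0528).

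Of the carriers of di- and tricarboxylates, those for citrate and for malate and succinate fell, and those for oxoglutarate and oxoadipate rose. SLC25A10, which swaps malate and succinate for phosphate, had 16.5 and 16.3 CPM in plus Dox libraries, against 27.3 and 26.9 CPM in minus Dox libraries, a log2 fold change of −0.72 (SE 0.08, edgeR adjusted p = 1.12e-09). SLC25A1 had 110.5 and 118 CPM in plus Dox libraries, against 145 and 151 CPM in minus Dox libraries (−0.38, SE 0.05, edgeR adjusted p = 5.68e-09). In both genes the groups were far apart against the spread within them. SLC25A21, the oxodicarboxylate carrier of lysine and tryptophan breakdown, had 2.44 and 3.58 CPM in plus Dox libraries, against 1.21 and 1.31 CPM in minus Dox libraries (1.25, SE 0.25, edgeR adjusted p = 5.35e-05). SLC25A11, which swaps oxoglutarate and malate in the malate–aspartate shuttle, averaged 102 ± 0.0836 CPM in plus Dox and 93 ± 2.86 CPM in minus Dox (SD, n = 2 each), a log2 fold change of 0.14 (edgeR adjusted p = 0.0120). SLC25A11 missed without plus Dox replicate 1 (0.126), plus Dox replicate 2 (0.123) or minus Dox replicate 2 (0.0735) and in DESeq2 (0.0543), and SLC25A1 missed with the trend removed (0.0534). In GENCODE 29, 46.6% of the exon bases of SLC25A10 lie in another gene on the same strand and 28.8% of those of SLC25A21 opposite other genes, among them SLC25A21-AS1, which also rose (1.72), so both counts are uncertain.

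Of the 4 aspartate and glutamate carriers 0 passed in edgeR, where 56.9% of all tested genes passed. SLC25A12 alone had an unadjusted p under 0.05. SLC25A13 (citrin), which sends aspartate out of the matrix in the malate–aspartate shuttle, had 82.8 and 80.1 CPM in plus Dox libraries, against 83.9 and 78.8 CPM in minus Dox libraries. SLC25A12 (aralar), its paralogue and like it regulated by calcium, had 23.7 and 27.1 CPM in plus Dox libraries, against 23.4 and 21.8 CPM in minus Dox libraries (0.17, SE 0.08, edgeR adjusted p = 0.0717), and passed as higher without plus Dox replicate 1 (0.0383) or minus Dox replicate 1 (0.0385). SLC25A22 and SLC25A18 carry glutamate alone. SLC25A22 had 40.6 and 42.1 CPM in plus Dox libraries, against 40.4 and 44.2 CPM in minus Dox libraries, and SLC25A18 had 2.07 and 1.22 CPM, against 1.72 and 1.23 CPM. The groups overlapped in SLC25A13, SLC25A18 and SLC25A22. With library size only SLC25A12, SLC25A13 and SLC25A22 passed as higher (0.39, 0.22 and 0.18, where the median of all genes was 0.22), and DESeq2 called 0 of the 4.

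In the other amino acid carriers 1 of 4 tested members fell and 1 rose, where 31.9% of tested protein-coding genes fell and 33.6% rose. SLC25A29, a carrier of arginine, lysine and other basic amino acids, had 36 and 31.8 CPM in plus Dox libraries, against 53.5 and 55.5 CPM in minus Dox libraries, a log2 fold change of −0.68 (SE 0.07, edgeR adjusted p = 2.71e-11). SLC25A44, the carrier of branched-chain amino acids, averaged 103 ± 1.75 CPM in plus Dox and 93.2 ± 0.758 CPM in minus Dox (0.14, edgeR adjusted p = 0.00943), and missed without plus Dox replicate 1 (0.173) or 2 (0.0703). SLC25A38, which takes in glycine for heme synthesis, averaged 57.6 ± 1.32 CPM in plus Dox and 58.1 ± 1.91 CPM in minus Dox (SD, n = 2 each) and did not pass, though it passed as higher under library size only (0.20) and after removal of the trend (0.21). SLC25A15, the ornithine carrier of the urea cycle, did not pass either (−0.10), and the ornithine carrier SLC25A2 had at most 5 counts in a library and was not tested. SLC25A20, the carnitine–acylcarnitine exchanger that feeds fatty acid oxidation, averaged 17.8 ± 1.09 CPM in plus Dox and 14.7 ± 0.401 CPM in minus Dox (0.27, edgeR adjusted p = 0.0108), and missed without plus Dox replicate 2 (0.174) or minus Dox replicate 2 (0.0521) and in DESeq2 (0.110).

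The 2 carriers that bring glutathione into mitochondria moved in opposite directions. SLC25A40 had 41.2 and 40.6 CPM in plus Dox libraries, against 16.2 and 16.9 CPM in minus Dox libraries, a 2.47-fold rise (log2 1.3, SE 0.07, edgeR adjusted p = 3.16e-17). SLC25A39, the more abundant form, had 133 and 139 CPM in plus Dox libraries, against 192 and 192 CPM in minus Dox libraries (log2 −0.50, SE 0.04, edgeR adjusted p = 1.47e-12). The groups were apart in both genes by many times the spread within a group. The count ratio of SLC25A40 to SLC25A39 was 0.309 and 0.293 in plus Dox libraries, against 0.0846 and 0.0881 in minus Dox libraries. Per exon length SLC25A40 held 17.7% and 16.9% of the pair in plus Dox, against 5.55% and 5.76% in minus Dox, so SLC25A39 was the main form in all 4 libraries. Both directions held under every alternative run, with log2 values of 0.56 for SLC25A40 and −0.30 for SLC25A39 at the trend-removed setting. SLC25A40 transcripts have 34.2% GC and SLC25A39 transcripts 59.4%.

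**Figure D2:**
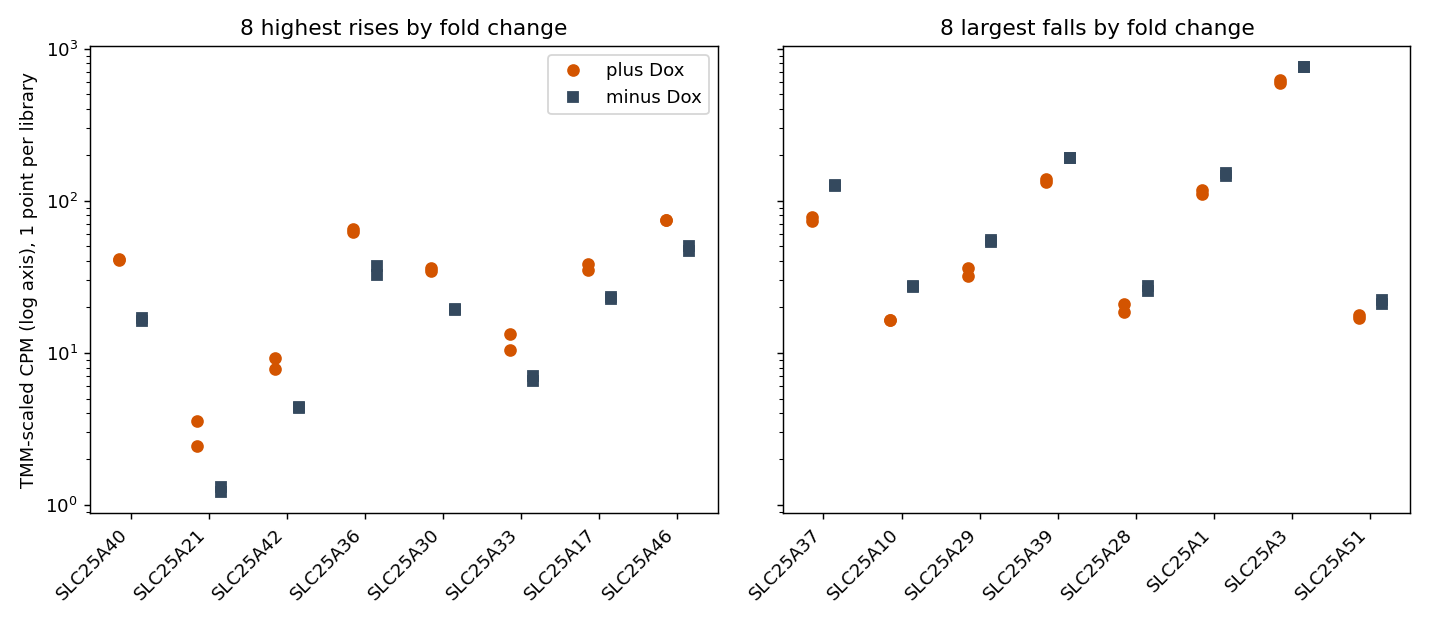
TMM-scaled CPM on a log axis, 1 point per library, for the 8 highest rises (left) and 8 largest falls (right) among called members with at least 1 CPM, plus Dox as circles and minus Dox as squares. In each of the 16 genes the 2 groups do not overlap, as in SLC25A40 (41.2 and 40.6 against 16.2 and 16.9 CPM). These genes were picked by call and fold change, which favours such gaps, and 77% of all tested genes did not overlap either. Once the trend over GC, length and abundance is taken out, SLC25A46 turns to −0.27 and SLC25A3 to 0.064 on the log2 scale.

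Both mitoferrins, which carry iron into mitochondria for heme and iron–sulfur clusters, fell. SLC25A37 (mitoferrin-1) had 73.5 and 77.9 CPM in plus Dox libraries, against 124 and 126 CPM in minus Dox libraries, a log2 fold change of −0.72 (SE 0.05, edgeR adjusted p = 2.29e-15). SLC25A28 (mitoferrin-2) had 20.8 and 18.6 CPM in plus Dox libraries, against 25.6 and 27.4 CPM in minus Dox libraries (−0.43, SE 0.08, edgeR adjusted p = 2.26e-05). In neither gene did the groups overlap. Both fell under every alternative run, with SLC25A28 closest to the threshold when the trend was removed (−0.19, edgeR adjusted p = 0.0489). Of 6 listed genes of mitochondrial iron and heme 3 rose, 0 fell and 3 did not pass. Tested protein-coding genes rose in 33.6% and fell in 31.9%. The 3 listed genes that rose were ferrochelatase FECH (0.29), the heme synthesis transporter ABCB10 (0.31) and ALAS1 (0.14), the entry enzyme of heme synthesis, which missed in DESeq2 (0.0613).

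Of 9 tested carriers of nucleotides, cofactors and vitamins, the largest of the substrate groups, 5 rose, 1 fell and 3 did not pass. Rises made up 28.4% of all tested genes and 33.6% of tested protein-coding genes. The pyrimidine nucleotide carriers rose together. SLC25A36 had 62.3 and 65.4 CPM in plus Dox libraries, against 37.1 and 32.3 CPM in minus Dox libraries, a log2 fold change of 0.88 (SE 0.06, edgeR adjusted p = 3.02e-14). SLC25A33 had 10.5 and 13.3 CPM in plus Dox libraries, against 7.07 and 6.56 CPM in minus Dox libraries (0.81, SE 0.12, edgeR adjusted p = 7.02e-07). Both are among the genes whose promoters are printed above with TGACGTCA, and their count ratio overlapped between the groups (5.91 and 4.9 in plus Dox, 5.25 and 4.91 in minus Dox). SLC25A36 lay at 0.48 with the trend removed and SLC25A33 at 0.82.

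SLC25A42, a carrier of coenzyme A, had 9.29 and 7.79 CPM in plus Dox libraries, against 4.32 and 4.4 CPM in minus Dox libraries (log2 0.97, SE 0.14, edgeR adjusted p = 2.54e-07). SLC25A16, also linked to coenzyme A, did not pass (0.11, edgeR adjusted p = 0.271), though it passed as higher with library size only (0.33). SLC25A17, the peroxisomal carrier of coenzyme A, FAD and related cofactors, had 34.9 and 38.2 CPM in plus Dox libraries, against 22.7 and 23.1 CPM in minus Dox libraries (0.68, SE 0.07, edgeR adjusted p = 5.29e-10). SLC25A42 and SLC25A17 were higher in both plus Dox libraries than in either minus Dox library. SLC25A32, the folate and FAD carrier, averaged 49.7 ± 0.893 CPM in plus Dox and 32 ± 1.56 CPM in minus Dox (0.63, edgeR adjusted p = 1.37e-10), but 69.7% of its exon bases lie in other genes on the same strand, so its count is uncertain. The NAD carrier SLC25A51 had 16.9 and 17.8 CPM in plus Dox libraries, against 22.2 and 20.8 CPM in minus Dox libraries (−0.31, SE 0.08, edgeR adjusted p = 0.00216), and lost its call with library size only (−0.092, edgeR adjusted p = 0.370). Its near-identical copy SLC25A52 had at most 3 counts per library, and reads that fit both may have been split or dropped. SLC25A26, the carrier of S-adenosylmethionine, did not pass (−0.13), though it passed as lower without plus Dox replicate 2 (0.0405) or minus Dox replicate 2 (0.0191).

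Of the 3 carriers that resemble uncoupling proteins 2 rose, where 33.6% of tested protein-coding genes rose. SLC25A30 had 36.1 and 34.6 CPM in plus Dox libraries, against 19.4 and 19.2 CPM in minus Dox libraries, a log2 fold change of 0.87 (SE 0.07, edgeR adjusted p = 1.70e-12), at 0.66 with the trend removed. SLC25A14 averaged 16.9 ± 0.344 CPM in plus Dox and 13.8 ± 1.19 CPM in minus Dox (0.29, edgeR adjusted p = 0.00888), and missed without plus Dox replicate 1 (0.0755) or minus Dox replicate 2 (0.126) and in DESeq2 (0.102). SLC25A27, best known from brain, averaged 4.61 ± 1.24 CPM in plus Dox and 4.16 ± 0.343 CPM in minus Dox (SD, n = 2 each) and did not pass.

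Among members with no settled substrate 3 of 7 tested rose and 1 fell, where 33.6% of tested protein-coding genes rose and 31.9% fell. SLC25A46, an outer-membrane protein that takes part in mitochondrial fission and shape, had 75.2 and 75 CPM in plus Dox libraries, against 50.4 and 46.4 CPM in minus Dox libraries (log2 0.63, SE 0.06, edgeR adjusted p = 4.78e-12). Its transcripts have 32.1% GC, the lowest of the called members, and with the trend removed it passed as lower (−0.27, edgeR adjusted p = 1.18e-04). SLC25A45 averaged 17.2 ± 0.511 CPM in plus Dox and 12.5 ± 0.1 CPM in minus Dox (0.46, edgeR adjusted p = 6.78e-05), and SLC25A35 22.6 ± 0.268 and 18.4 ± 1.53 CPM (0.29, edgeR adjusted p = 0.00296). SLC25A48, a rarely counted gene, had 9 and 8 counts in plus Dox libraries, against 23 and 27 counts in minus Dox libraries. Its log2 fold change of −1.49 (SE 0.52, edgeR adjusted p = 0.0137) lost its call whichever library was left out (0.0649 to 0.102) and in DESeq2 (0.125). SLC25A35 missed without minus Dox replicate 1 (0.0556), and 33.2% of its exon sequence has another gene on the opposite strand. SLC25A43, beside SLC25A5 on chromosome X, SLC25A34 and SLC25A53 did not pass, though SLC25A43 passed as higher under library size only (0.31) and after removal of the trend (0.26), and SLC25A47 had 1 count over all 4 libraries and was not tested.

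**Figure D3:**
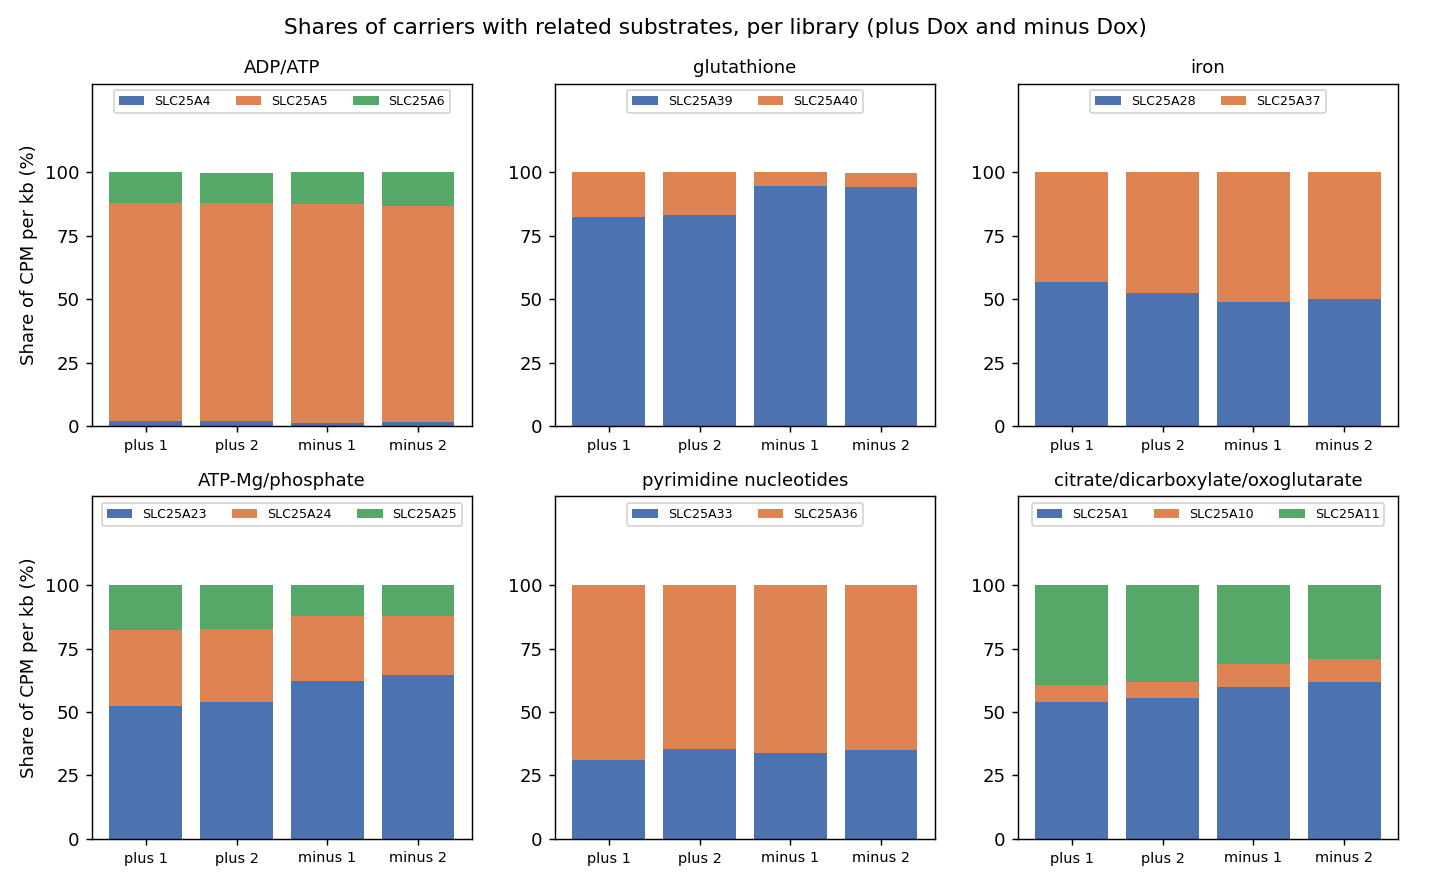
Share of summed CPM per kb of exon held by each carrier within 6 sets of related substrate, as stacked bars for each library, plus Dox left of minus Dox. SLC25A40 holds 17.7% and 16.9% of the glutathione pair in plus Dox, against 5.55% and 5.76% in minus Dox, while the ADP/ATP bars show SLC25A5 between 85.2% and 86.3% in every library.

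Within sets of related substrate, per-length shares showed where the mix of forms differed between the groups. In the set of SLC25A1, SLC25A10 and SLC25A11, the oxoglutarate carrier SLC25A11 held 39.4% and 38.1% in plus Dox, against 30.9% and 29.2% in minus Dox. In the ATP-Mg/phosphate set SLC25A23 held 52.4% and 54.1% in plus Dox, against 62.4% and 64.4% in minus Dox. The shares of the pyrimidine pair overlapped between the groups, with SLC25A36 at 68.9% and 64.7% in plus Dox, against 66.2% and 64.8% in minus Dox. With 2 libraries against 2 an exact two-sided permutation test of a share cannot go below p = 0.333, so no test of these shares is given.

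Fold change ran with base composition among the members. Across the 44 tested members Pearson's r between log2 fold change and transcript GC content was −0.48 (Spearman's rho −0.45), against −0.16 (−0.27) over 17974 tested genes with a GC value, where genes share libraries and are not independent replicates. Members that rose had a median GC content of 46.1% and a range of 32.1% to 60.2%. Members that fell had a median of 58.2% and a range of 43.9% to 65.6%. Some GC-rich members rose too, such as SLC25A42 (60.2% GC), by 0.97, or 0.96 with the trend removed. SLC25A45 (59.5% GC), SLC25A35 (59.3%) and SLC25A11 (59.3%) rose by less, at 0.46, 0.29 and 0.14. With the trend removed these 3 lay at 0.44, 0.31 and 0.33. Exon length and abundance ran less closely with fold change (Pearson's r 0.05 and −0.11). The part of base composition in the single results was not tested beyond removing the trend.

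**Figure D4:**
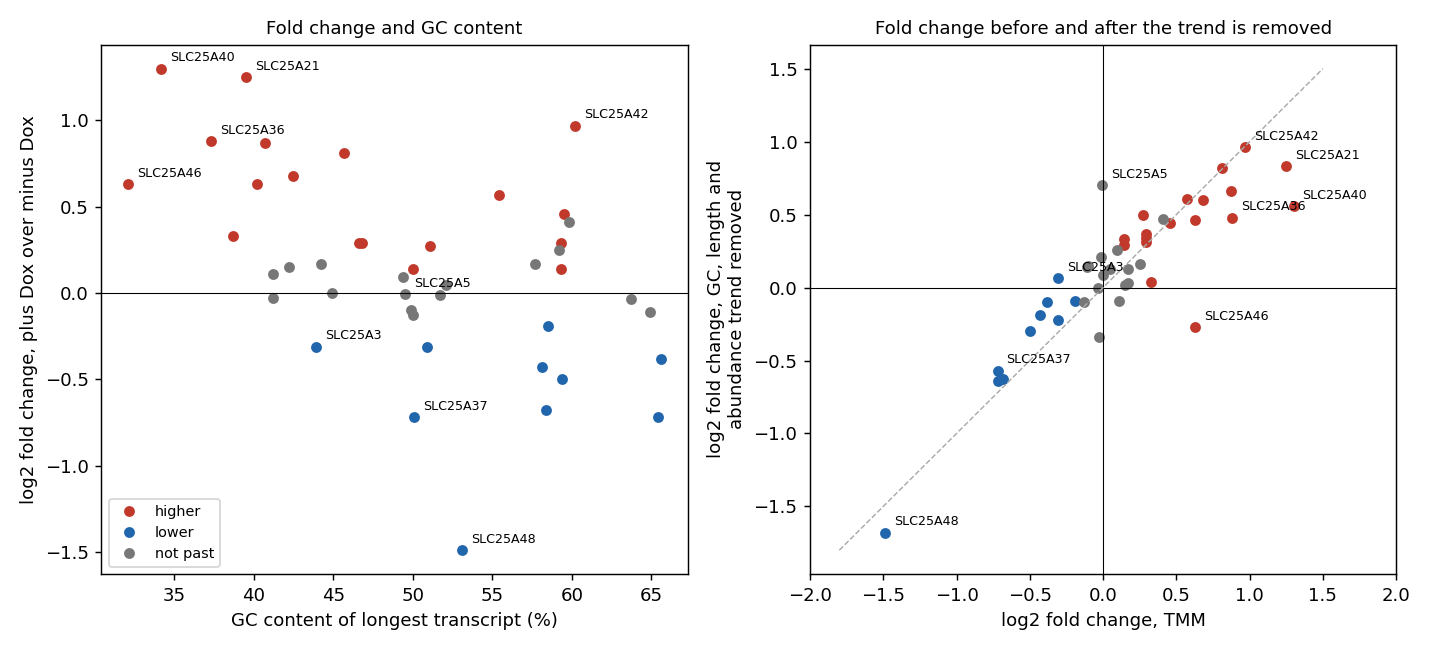
Left, log2 fold change, plus Dox over minus Dox, against GC content of the longest transcript for the 44 tested members (Pearson's r −0.48). Right, the same fold changes by TMM on the horizontal axis and after removal of the GC, length and abundance trend on the vertical axis, the dashed line marking equality, where SLC25A46 turns to −0.27 and SLC25A5 to 0.70.

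Other genes of mitochondrial transport, in a list of 52, held more falls than rises with TMM: 14 rose, 22 fell and 16 did not pass. Across all tested genes 28.4% rose and 28.4% fell, and across tested protein-coding genes 33.6% and 31.9%. The split of the list depended on the scaling, since library size only gave 27 rises and 8 falls, and removal of the trend gave 23 and 11. The outer-membrane channel VDAC1 fell to 306 ± 0.493 CPM in plus Dox, against 429 ± 10.9 CPM in minus Dox (−0.49), and VDAC3 also fell (−0.31). In the pyruvate carrier both subunits rose, MPC1 to 8.39 ± 0.142 CPM, against 5.63 ± 0.41 CPM in minus Dox, and MPC2 to 59.5 ± 2.66 CPM, against 40.3 ± 1.83 CPM. Of the 5 sideroflexins, another family of inner-membrane carriers, 4 fell and 1 rose with TMM. SFXN1, a serine carrier, rose (0.47), and SFXN3 (−0.99), SFXN2 (−0.69), SFXN4 (−0.40) and SFXN5 (−0.20) fell, though SFXN4 and SFXN5 did not pass with the trend removed and SFXN5 lay at 0.019 with library size only and missed in DESeq2 (0.0849). MICU2, a regulator of the calcium uniporter, rose (0.79). MPC1, MPC2, SFXN2, SFXN4 and SFXN5 were chosen after their values were seen.

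The partners of single carriers were also mixed. CPT2, which hands acylcarnitines taken in by SLC25A20 back to coenzyme A, rose to 17.9 ± 0.824 CPM in plus Dox, against 9.8 ± 0.0585 CPM in minus Dox (0.87, SE 0.1, edgeR adjusted p = 1.41e-09). ACLY, which splits the citrate exported by SLC25A1, fell to 976 ± 24.9 CPM, against 1439.8 ± 12 CPM in minus Dox (−0.56), but lay at 0.039 with the trend removed. Of the malate–aspartate shuttle enzymes GOT2 and MDH2 fell (−0.28 each) and GOT1 rose (0.13, missing in DESeq2 at 0.145), while GOT2 passed as higher (0.11) and MDH2 lay at 0.078 with the trend removed, and neither passed with library size only. Import factors for carriers included TOMM70, the receptor at the outer membrane, which rose (0.26), and the small TIM chaperones TIMM13 (−0.56) and TIMM10 (−0.28), which fell, TIMM10 turning to 0.25 with the trend removed. The uncoupling protein UCP2 rose to 219.9 ± 0.717 CPM, against 176 ± 2.93 CPM in minus Dox (0.32).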

How the data were processed

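RNA of 4 A549 libraries was sequenced, and the authors deposited raw counts per gene. Per the submitters' processing notes reads were handled on build hg38 with tools that included featureCounts 2.0.3, STAR 2.7.10b, cutadapt 4.0, DRAGEN and DESeq2 2.11.40.7. Neither annotation release nor strand setting is given in the sources used here, so overlapping genes are uncertain.

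Counts were tested in R 4.3.3 with edgeR 4.0.16 (filterByExpr, TMM, quasi-likelihood test, group as the only term), tested on simulated data first. TMM factors were 1.077 and 1.079 in plus Dox, and 0.93 and 0.926 in minus Dox. P-values were Benjamini-Hochberg adjusted over 18046 genes. Whether replicates were separate cultures is not in the labels, so p-values measure only the spread between these libraries. Alternatives were library size only, DESeq2 1.42.0, other filters, each library left out, a replicate block and a trend over GC, length and abundance fitted with mgcv 1.9.3 on GENCODE 29 transcripts. Per-library values were given for the 8 highest rises and 8 largest falls, for the ADP/ATP, iron, and aspartate and glutamate groups and for the 3 highest levels. Up to 3 genes with the lowest adjusted p were named per part of the partner list. MPC1, MPC2, SFXN2, SFXN4 and SFXN5 were named outside that rule. The values of 1 tested member are not reported here. Members, lists and motifs were chosen with earlier results of these data known.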

Additional observations from a re-analysis of the deposited data

How the results depend on the processing

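With library size only, the members' median log2 fold change was 0.36 and that of all tested genes 0.22, while 7865 of all tested genes rose and 2925 fell, against 5133 and 5132 with TMM. The partner list had 27 higher and 8 lower with library size only, and 23 higher and 11 lower with the trend removed. With library size only SLC25A5 (0.21), SLC25A6 (0.11), SLC25A22 (0.18), SLC25A23 (0.028) and SLC25A38 (0.2) changed sign and passed there or with TMM. Only SLC25A23 of these had passed with TMM. SLC25A15, SLC25A26 and SLC25A53 changed sign but passed in neither. With the trend removed the same held for SLC25A3 (0.064), SLC25A5 (0.7), SLC25A6 (0.14), SLC25A38 (0.21) and SLC25A46 (−0.27). SLC25A3 and SLC25A46 had passed with TMM. SLC25A15 and SLC25A16 changed sign there but passed in neither. The cause of these changes of sign was not tested. Leaving out each library gave a members' median of 0.067 to 0.11, with 15 to 18 members higher and 9 to 10 lower. DESeq2 called 15 members higher and 9 lower. Of 28 called members, 16 kept their call and sign under every alternative run on all members. Without the 4 members that share over 25% of exon bases with another gene, a count chosen after seeing the data, 15 rose and 9 fell.

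The replicate block gave 18 members higher and 11 lower, SLC25A6 being added (edgeR adjusted p = 0.0458). Same-numbered libraries did not deviate together (correlation 0.002, across genes). Whether they shared a culture or preparation is not in the labels and was not tested. Replicates differed beyond sampling noise (chi-square per degree of freedom 2.25 in plus Dox and 4.13 in minus Dox). With 2 libraries a group, small changes and genes under about 1 CPM, such as SLC25A48, were the least certain.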
